A study of Mus musculus with 8 samples.

Results

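The 6 loci of the mouse DNA methyltransferase genes Dnmt1, Dnmt3a and Dnmt3b and of the Tet dioxygenase genes Tet1, Tet2 and Tet3 were examined for methylated DNA in the epithelium of the small intestine. The peaks of 8 libraries that overlapped a fixed mm9 interval around each gene were merged wherever they shared at least 1 bp, which gave 206 regions of 475861 in the whole genome. The intervals were chr9:20690000-20790000 for Dnmt1, chr12:3785000-3935000 for Dnmt3a, chr2:153455000-153535000 for Dnmt3b, chr10:62245000-62365000 for Tet1, chr3:133105000-133230000 for Tet2 and chr6:83290000-83415000 for Tet3. They held 29, 47, 24, 33, 32 and 41 regions in that order.

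The libraries were made by MBD sequencing, in which a methyl-CpG-binding domain captures methylated fragments of sheared DNA before sequencing, from biological duplicates of 4 groups of sorted cells. All mice were of a mixed C57BL/6 CD1 strain. The embryonic groups were epithelium at embryonic days E12.5 and E14.5, sorted as live cells positive for EpCAM, an epithelial surface protein, and negative for CD31 (endothelium) and CD45 (leukocytes). Both adult groups came from males carrying Lgr5EGFP-Cre-ERT, given as P60 (postnatal day 60), and thus shared a transgene that the labels do not give for the embryos. The intestinal stem cells (ISC) were sorted for high EGFP driven from Lgr5, a gene of crypt base stem cells, and the enterocytes were sorted by the same EpCAM, CD31 and CD45 gate as the embryonic cells, a gate that by itself selects epithelium and not a single type. Sex of the embryos and the number of animals behind a replicate were not given in the sources used here. Methylation peaks hold no expression values, so the sorted types were not checked against marker genes.

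DNMT1 is the maintenance enzyme, which copies CpG methylation onto the new strand after DNA replication, and DNMT3A and DNMT3B set methylation on unmethylated DNA. The TET proteins oxidise 5-methylcytosine, the first step of active demethylation, and the captured mark is therefore the substrate or product of all 6 enzymes. In the intestinal epithelium of mice, Dnmt1 is known for its role in crypt progenitor cells.

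Capture depends on the density of methylated CpGs, and the promoters of these genes span much of the range of CpG density. The RefSeq promoter table of build GRCm38.p6, covering 250 bases before to 50 after each start, held 10 promoters of the 6 genes, all 6 matched by symbol. In it, Tet2 had 57 CpGs in 300 bases, a number reached by 0.152% of the 32851 promoters, the median of which was 7. The most upstream Dnmt1 promoter (GRCm38.p6 chr9:20959839-20960138, minus strand) had 2 CpGs and the most downstream (chr9:20952574-20952873, minus strand) had 33. The most upstream Dnmt3a promoter (chr12:3806730-3807029, plus strand) had 46 and the most downstream (chr12:3891494-3891793, plus strand) had 18. Dnmt3b, Tet3 and Tet1 had 30, 22 and 17 CpGs. A second Dnmt3a promoter (chr12:3806910-3807209) had 47. The most upstream and most downstream promoters of Dnmt1 and Dnmt3a and the dense Tet2 promoter (chr3:133544341-133544640, minus strand) were chosen to make that contrast visible and are given 5′ to 3′ on the gene's strand, with every CpG in capitals. At least 1 CpG was found in 94.6% of all promoters of the table.
Dnmt1 upstream promoter: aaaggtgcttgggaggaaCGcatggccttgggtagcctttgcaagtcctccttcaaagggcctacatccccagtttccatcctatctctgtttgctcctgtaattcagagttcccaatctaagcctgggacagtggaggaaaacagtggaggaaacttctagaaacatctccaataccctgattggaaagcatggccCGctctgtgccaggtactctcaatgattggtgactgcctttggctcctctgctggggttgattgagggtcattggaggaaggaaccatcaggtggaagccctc
Dnmt1 downstream promoter: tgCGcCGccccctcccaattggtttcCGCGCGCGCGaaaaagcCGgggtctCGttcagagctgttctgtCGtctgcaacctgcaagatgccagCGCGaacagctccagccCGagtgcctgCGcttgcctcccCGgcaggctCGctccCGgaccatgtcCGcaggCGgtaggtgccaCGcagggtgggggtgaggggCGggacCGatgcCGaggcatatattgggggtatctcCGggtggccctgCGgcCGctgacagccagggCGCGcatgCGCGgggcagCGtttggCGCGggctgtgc
Dnmt3a upstream promoter: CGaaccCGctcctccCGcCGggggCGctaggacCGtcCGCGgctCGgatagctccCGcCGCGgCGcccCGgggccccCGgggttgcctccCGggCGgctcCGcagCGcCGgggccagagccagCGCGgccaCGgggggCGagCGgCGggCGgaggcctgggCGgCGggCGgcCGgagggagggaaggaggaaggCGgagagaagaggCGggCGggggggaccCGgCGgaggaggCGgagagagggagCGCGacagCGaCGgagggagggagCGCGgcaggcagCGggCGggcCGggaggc
Dnmt3a downstream promoter: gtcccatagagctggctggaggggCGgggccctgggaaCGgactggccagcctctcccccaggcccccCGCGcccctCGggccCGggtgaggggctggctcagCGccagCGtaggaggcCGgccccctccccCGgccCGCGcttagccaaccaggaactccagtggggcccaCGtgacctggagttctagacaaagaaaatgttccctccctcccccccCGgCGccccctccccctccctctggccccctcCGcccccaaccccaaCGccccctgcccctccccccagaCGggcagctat
Tet2 promoter: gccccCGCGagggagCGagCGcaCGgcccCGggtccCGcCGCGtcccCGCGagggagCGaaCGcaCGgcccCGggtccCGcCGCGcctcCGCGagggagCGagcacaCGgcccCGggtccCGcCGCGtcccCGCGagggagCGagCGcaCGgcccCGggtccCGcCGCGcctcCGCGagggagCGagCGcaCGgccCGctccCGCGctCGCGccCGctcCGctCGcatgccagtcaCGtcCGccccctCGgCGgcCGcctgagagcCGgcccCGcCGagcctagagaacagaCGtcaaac
These positions are on another build than the peaks, so no peak was placed on a promoter, exon or intron, and the letters say nothing of whether these promoters were methylated here.

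The intervals were wider than the genes. In GRCm38.p6 the annotated genes were 52.7 kb long for Dnmt1, 113 kb for Dnmt3a, 38.3 kb for Dnmt3b, 82.9 kb for Tet1, 81.5 kb for Tet2 and 94.8 kb for Tet3. Around Dnmt1 the nearest annotated genes were Eif3g at 8.62 kb and S1pr2 at 6.06 kb. Around Tet3 they were Bola3 at 2.24 kb and Dguok at 23.0 kb. At both loci the flanks exceeded the gaps, and regions of the interval may lie in a neighbouring gene. At Dnmt3a, Dnmt3b and Tet1 the nearest genes were Dtnb at 16.1 kb, Commd7 at 16.6 kb and Ccar1 at 12.2 kb. Those intervals may also reach a neighbouring gene on 1 side, which was not checked on mm9.

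The libraries held 31438314 to 55442400 tags each, per the file headers, and 84990 to 338262 peaks. The E12.5 libraries stood apart from all others, with the most tags and the shortest lists, 100314 and 84990 peaks, and with 9.84% and 7.46% of their tags in peaks, against 23.8% to 38.9% in the other 6 libraries. Every list was thresholded on its own, so a region without a peak in a library is one where any tags stayed below the cutoff of the caller, and their number is not known. The amount captured is relative to the rest of the library, and no percent methylation per CpG can be read from it.

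All 6 loci carried many methylated regions. They held 25.6 (Tet2) to 32.8 (Tet3) regions per 100 kb, against 19.1 per 100 kb over the autosomes. The autosomal figure covers each chromosome up to its last region, with or without genes, and the density at other gene intervals was not counted. Their median length ranged from 528.5 bp at Tet2 to 874 bp at Dnmt1, and the regions together covered 18.6% of the Tet2 interval and 35.0% of the Dnmt1 interval. The longest stretch without a peak in any library was 14.0 kb at Tet1, from 62348492 to 62362522, and the longest at the other loci ranged from 6.84 kb at Dnmt3a to 9.36 kb at Tet2. A peak in all 8 libraries was found at 14 of the 206 regions, 6.80%, against 5.16% of all regions, and 52 of the 206 (25.2%, against 28.1% of all) were called in a single library. Dnmt3a had 4 of the 14 regions shared by all libraries, Tet1 had 3, Dnmt1, Dnmt3b and Tet3 had 2 each, and Tet2 had 1.

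**Figure D1:**
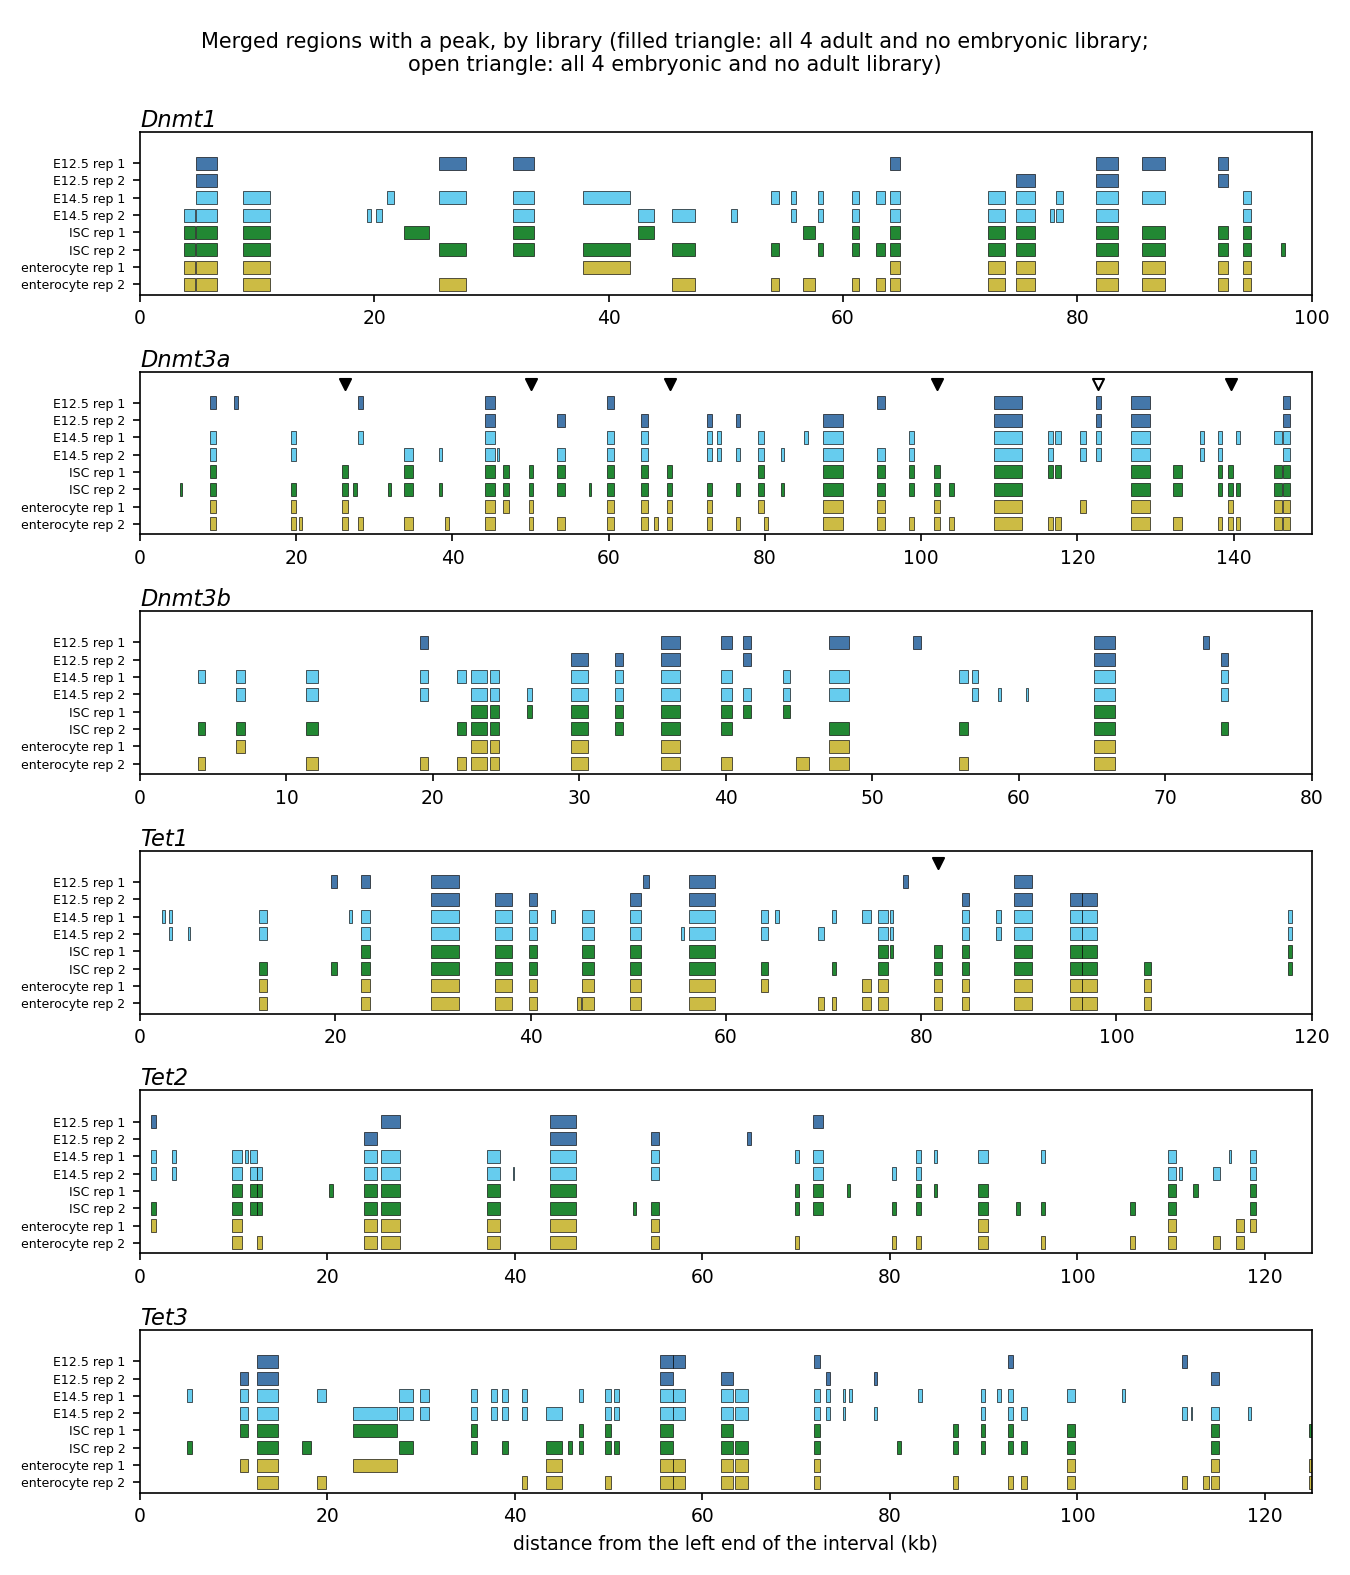
Each panel is a locus, with distance from the left end of its mm9 interval in kb on the x axis and the 8 libraries as rows. A bar marks a merged region in which that library had a peak, drawn over the whole merged region. E12.5 rows hold 44 and 41 peaks and E14.5 rows 142 and 163 over all loci, and 5 of the 6 filled triangles, for regions called in all adult and no embryonic libraries, are at Dnmt3a.

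Member regions were ranked by their mean RPM (tags scaled by the library total) over the 8 libraries, with a library that had no peak counted as 0, which favours regions called everywhere. The top region of each locus by this ranking was called in all 8, while regions called in fewer libraries could hold more where they had a peak, such as one at Dnmt1 (20715531 to 20717825) with 3.66 to 7.38 RPM in its 4 libraries. In the Dnmt1 interval the top region lay at 20771570 to 20773469, 81.6 kb from the left end, and may lie outside the gene. It held 2.19 and 2.27 RPM in E12.5, 4.69 and 4.10 in E14.5, 3.73 and 4.77 in ISC and 3.60 and 4.93 in enterocytes. The de novo enzyme gene Dnmt3a had its top region at 3894274 to 3897913, with 2.34 and 0.992 RPM in E12.5, 3.88 and 2.41 in E14.5, 1.67 and 5.09 in ISC and 5.84 and 6.28 in enterocytes. That of Dnmt3b, at 153490552 to 153491894, held 1.34 and 0.884 RPM in E12.5, 2.75 and 2.58 in E14.5, 1.82 and 2.89 in ISC and 2.33 and 2.22 in enterocytes. In each of these 3 regions the other libraries except ISC replicate 1 at Dnmt3a lay above both E12.5 libraries, and at Dnmt3a the ISC replicates differed most.

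Among the Tet genes, the top region of Tet1, at 62274756 to 62277648, had a mean of 4.87 ± 1.63 RPM (SD, n = 8). It held 2.30 and 2.31 RPM in E12.5, 6.19 and 6.16 in E14.5, 5.40 and 5.73 in ISC and 5.91 and 4.93 in enterocytes. The top Tet2 region, at 133148755 to 133151487, held 0.905 and 1.55 RPM in E12.5, 4.77 and 4.13 in E14.5, 5.15 and 5.06 in ISC and 5.14 and 6.64 in enterocytes. The top Tet3 region, at 83302434 to 83304729, held 1.86 and 1.64 RPM in E12.5, 4.11 and 4.33 in E14.5, 3.52 and 4.10 in ISC and 4.41 and 3.83 in enterocytes. In all 3 the E12.5 libraries were the lowest 2 of the 8.

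Summed over each interval, tags in peaks were lowest at E12.5 at every locus, while ISC overlapped with E14.5 and with enterocytes at all 6. Dnmt1 had 10.3 ± 3.90 RPM at E12.5 and 39.1 ± 4.04 RPM at E14.5, then 44.4 ± 14.8 RPM in the stem cells and 37.4 ± 9.52 RPM in enterocytes (mean ± SD of 2 libraries, n = 2, for this and the other sums by group). Dnmt3a had 9.41 ± 1.47, 27.1 ± 3.62, 35.0 ± 11.0 and 37.9 ± 9.88 RPM in the same order of groups, the only locus at which both adult means were above the E14.5 mean by more than the E14.5 standard deviation. Dnmt3b had the smallest sums outside E12.5, with 6.25 ± 0.834, 20.8 ± 0.190, 16.1 ± 8.77 and 13.3 ± 5.46 RPM, in the shortest interval.

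The Tet loci showed the same low values at E12.5. Tet1 had 9.67 ± 2.06, 36.8 ± 4.48, 32.7 ± 10.8 and 37.1 ± 0.978 RPM from E12.5 to enterocytes. Tet2 had 4.22 ± 0.305, 23.0 ± 3.61, 26.0 ± 5.86 and 22.7 ± 3.07 RPM, and Tet3 had 6.71 ± 0.302, 39.4 ± 3.70, 31.9 ± 14.9 and 28.9 ± 1.92 RPM. ISC replicate 1 was below ISC replicate 2 at all 6 loci, with 21.4 and 42.5 RPM at Tet3.

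**Figure D2:**
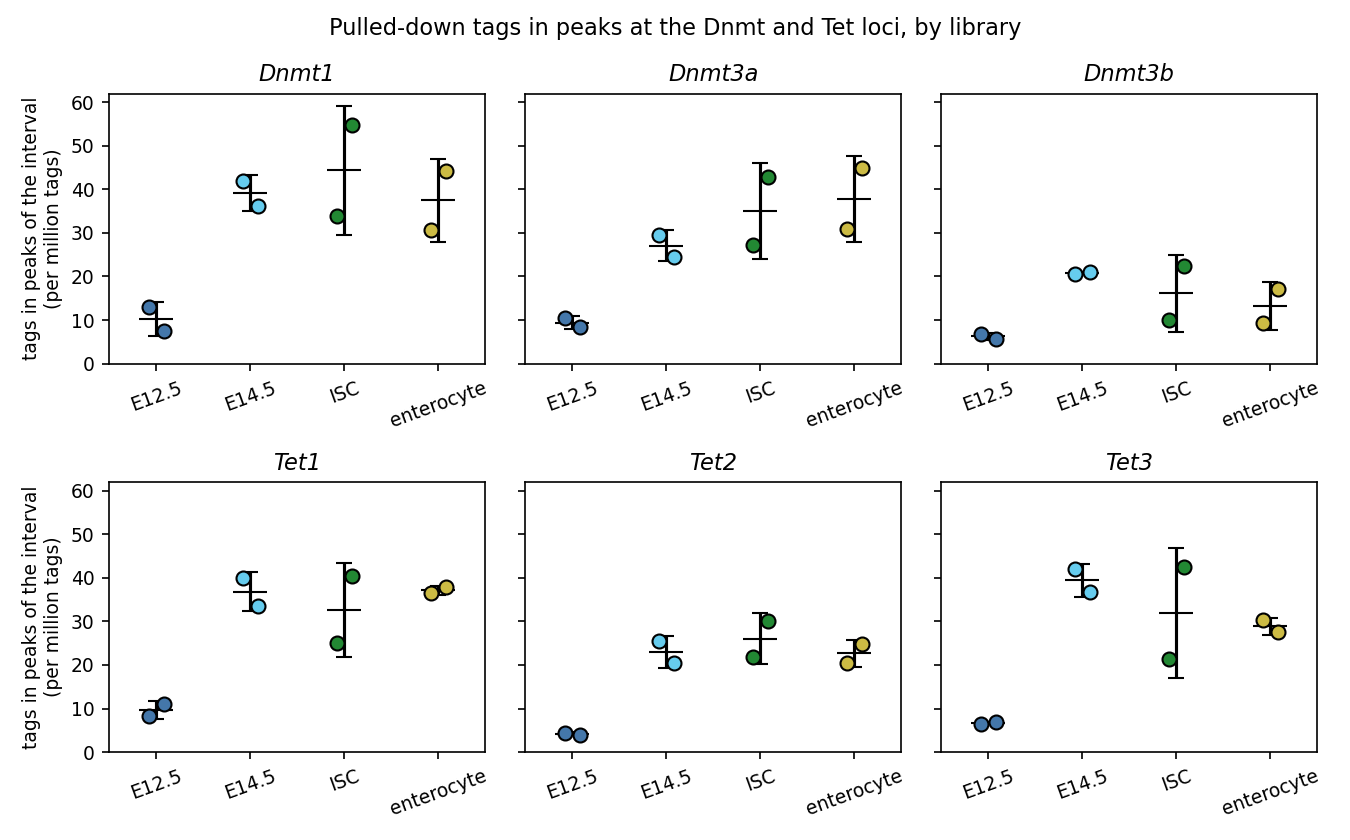
Tags in the peaks of each interval in RPM (y axis) for the 4 groups (x axis, from E12.5 to enterocytes), with 1 point per library and the mean and SD of 2 libraries as a dash and bar. Both E12.5 points lie below all other points at every locus, the highest at 13.1 RPM.

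Between E14.5 and E12.5 the question was what changes while the embryonic epithelium develops. The sums were higher in both E14.5 libraries than in both E12.5 libraries at all 6 loci, as they were in 95.1% of 23733 autosomal windows of 100 kb (0.0379% were lower). The log2 differences were 1.96 at Dnmt1, 1.52 at Dnmt3a, 1.72 at Dnmt3b, 1.93 at Tet1, 2.41 at Tet2 and 2.53 at Tet3, around the median of 2.13 over the windows. With sums scaled by the tags in peaks the windows' median was 0.25, and the differences were 0.58 at Tet3 and 0.47 at Tet2 (both higher at E14.5 without overlap, as were 32.8% of windows), -0.44 at Dnmt3a (lower without overlap, as were 17.2%), and 0.00 at Dnmt1, -0.03 at Tet1 and -0.23 at Dnmt3b, where the libraries overlapped. With 2 libraries on each side the exact two-sided permutation p cannot be smaller than 0.333, so none of these differences could pass a threshold of 0.05.

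Of the 170 member regions with a peak at either stage, 47 were called in both replicates of E14.5 and in no E12.5 library. This is 27.6%, against a background of 27.5% of all regions. They were spread over all loci, with 11 at Tet3, 8 each at Dnmt3a and Tet1, 7 each at Dnmt1 and Tet2 and 6 at Dnmt3b. The highest-ranked, by the lower of its 2 score percentiles, was at Tet2 (133214669 to 133215559), with 1.62 and 1.78 RPM at E14.5 and peaks in all 4 adult libraries of 1.30 to 1.94 RPM. The next were at Tet3 (83353441 to 83354839, with 3.59 and 2.41 RPM at E14.5), Dnmt3b (153477630 to 153478672, with 1.68 and 1.86), Dnmt3a (3922993 to 3923513, with 1.19 and 0.917) and Dnmt1 (20698784 to 20701060, with 3.59 and 4.10). All 5 were called in at least 3 adult libraries. The Dnmt1 region lay 2399 bp, and the Tet2 region 20006 bp, from the nearest E12.5 peak.

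A single member region had a peak in both E12.5 libraries and no E14.5 library, against a background of 0.317% of all regions. It was at Dnmt1, at 20782011 to 20782818, with 1.14 and 0.956 RPM at E12.5. It was also called in all 4 adult libraries, with 0.802 and 0.986 RPM in ISC and 0.969 and 1.33 RPM in enterocytes, so E14.5 was the only group without it. The nearest E14.5 peak lay 1291 bp away. A call at E12.5 and in both adult groups but not at E14.5 was found at 61 of the 83533 regions of the genome whose replicates matched in every group.

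For ISC and E14.5 the question was how stem cells of the adult compare with fetal epithelium. Of 192 member regions, 10 had peaks in each ISC replicate and none at E14.5, 5.21%, against 2.04% of all regions, and 7 of the 10 were at Dnmt3a, with 1 each at Dnmt1, Tet1 and Tet3. The reverse was found at 17 member regions, 8.85%, against 7.13% of all, of which 6 were at Tet3 and 4 at Dnmt3a. Dnmt3b and Tet2 had no region called in ISC only. With every list held to its 84990 highest-scoring peaks the counts were 5 in ISC only and 1 at E14.5 only, beside 7313 and 6729 over all regions.

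The ISC regions that ranked highest were at Dnmt3a (3834755 to 3835354, with 0.987 and 0.986 RPM in ISC) and Tet1 (62326287 to 62327171, with 1.05 and 1.27 RPM), followed by Dnmt3a regions at 3810878 to 3811638 (0.956 and 0.954 RPM), 3924228 to 3924965 (1.02 and 0.986 RPM) and 3831424 to 3832243 (0.679 and 1.30 RPM). Of these 5, the first 4 were called in both enterocyte libraries and the last in enterocyte replicate 1. Among regions without an ISC peak, those at Dnmt3a (3858882 to 3859350) and Tet1 (62332694 to 62333169) were called in the E14.5 libraries alone, with 0.984 and 1.03 and with 1.13 and 0.946 RPM. Those at Dnmt3b (153474095 to 153474647) and Tet3 (83346867 to 83348187 and 83330752 to 83331333) also had peaks in enterocyte replicate 2, and the E14.5 libraries held 0.868 to 1.92 RPM in them.

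As sums, every locus overlapped between ISC and E14.5. The log2 difference was 0.34 at Dnmt3a, 0.17 at Tet2, 0.14 at Dnmt1, -0.20 at Tet1, -0.38 at Tet3 and -0.48 at Dnmt3b, beside a median of -0.18 over the windows, of which 2.40% were higher and 12.4% lower in ISC without overlap. A difference as high as that of Dnmt3a was found in 5.81% of windows. Scaled by the tags in peaks the ISC replicates came closer together, at 112 ± 3.21 for Dnmt3a, against 80.3 ± 2.45 at E14.5, and then Dnmt3a, Dnmt1 and Tet2 were higher in ISC without overlap, as were 16.4% of windows, and Tet1 and Tet3 lower, as were 20.3%. The exact permutation p was 0.333 at each of these 5 loci, the smallest that 2 against 2 libraries can give.

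For enterocytes and ISC the question was what differs between the adult epithelium labelled as enterocytes and the stem cells. Of 161 member regions, 3 had peaks in each enterocyte replicate and none in ISC, 1.86%, against 1.71% of all regions, and the reverse at 8, 4.97%, against 5.16%. None of the 11 was at Dnmt3a. The 3 enterocyte regions were at Tet2 (133221926 to 133222730, with 1.18 and 0.869 RPM and called in no other library), Tet1 (62318977 to 62319818, with 1.2 and 0.971 RPM) and Tet3 (83346867 to 83348187, with 1.32 and 0.792 RPM). The highest-ranked region called in ISC only was at Tet2 (133176773 to 133177814, with 1.82 and 1.75 RPM in ISC and peaks in both E14.5 libraries), followed by Tet3 (83325263 to 83325976, with 1.88 and 2.26 RPM), Tet1 (62362523 to 62363022), Dnmt3b (153487450 to 153487958) and Tet2 (133116749 to 133117474). All 5 had peaks in both E14.5 libraries.

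As sums, all 6 loci overlapped between enterocytes and ISC, with log2 differences from -0.23 at Dnmt3b and Dnmt1 to 0.22 at Tet1 and a median of -0.03 over the windows. Without overlap, 6.29% of windows were higher and 7.80% lower in enterocytes. Scaled by the tags in peaks, Dnmt3a and Tet1 were higher and Dnmt1 and Tet2 lower in enterocytes without overlap, by 0.16, 0.26, -0.19 and -0.15 on the log2 scale, at the same exact permutation p of 0.333. At this scaling 16.8% of windows were higher and 16.2% lower in enterocytes without overlap.

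For the 4 adult and 4 embryonic libraries the question was which methylated regions set adult cells apart. Of the 206 member regions, 6 had a peak in every adult library and in no embryonic one, 2.91%, against 0.402% of all regions, and 5 of the 6 were at Dnmt3a and 1 at Tet1. No such region was found at Dnmt1, Dnmt3b, Tet2 or Tet3. These are counts without a test over replicates. The opposite was found at 1 region, also at Dnmt3a, against a background of 0.139%. Of the 48 member regions whose replicates matched in every group, 6 were called in ISC and enterocytes only, against 2.29% of the 83533 such regions of the genome, while 10 (20.8%) were called in every group but E12.5, against 31.3%, and none of those 10 was at Dnmt3a or Tet3.

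The 5 adult Dnmt3a regions were spread over the interval, at 25.9, 49.8, 67.5, 102 and 139 kb from its left end. The first, at 3810878 to 3811638, held 31 and 30 tags in the ISC replicates and 49 and 40 in those of enterocytes. That at 3834755 to 3835354 held 32 and 31 tags in the ISC replicates and 35 and 47 in enterocytes, and that at 3852450 to 3853154 held 23 and 29 in ISC and 42 and 31 in enterocytes. Between the adult libraries these regions were even, within 0.709 to 1.2 RPM.

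The fourth adult Dnmt3a region (3886700 to 3887353) was called on 22 and 21 tags in ISC and on 40 and 31 in enterocytes. The fifth, at 3924228 to 3924965, held 33 and 31 tags in the ISC replicates and 44 and 58 in enterocytes, and an embryonic peak lay 371 bp from it, whereas the nearest embryonic peak to the other 4 lay 1332 to 3137 bp away. The adult Tet1 peaks, at 62326287 to 62327171, had 34 and 40 tags in the ISC replicates and 55 and 62 in enterocytes, the most of the 6. The embryonic Dnmt3a region, at 3907332 to 3907983, held 56 and 47 tags at E12.5 and 50 and 25 at E14.5, with the nearest adult peak 1250 bp away.

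**Figure D3:**
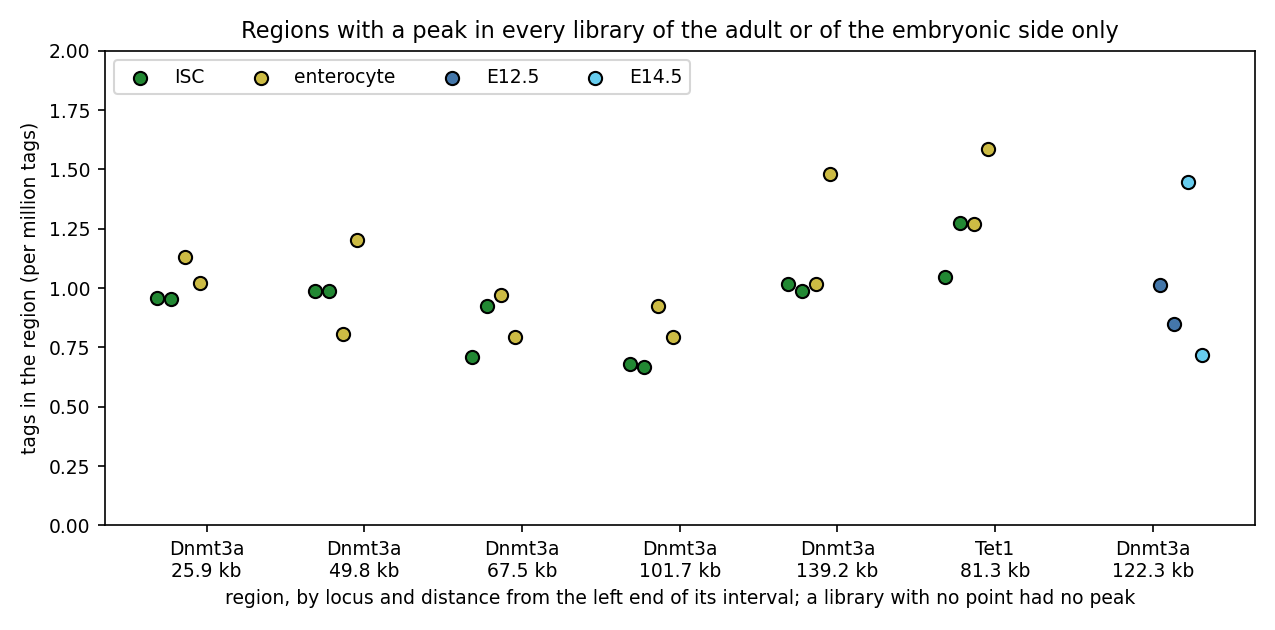
Tags in RPM (y axis) in the 6 regions called in all 4 adult libraries only and, at the right, the 1 region called in all 4 embryonic libraries only (x axis, by locus and distance from the left end of the interval), with 1 point per library that had a peak. The adult points lie between 0.668 and 1.58 RPM, and the embryonic points between 0.717 and 1.45 RPM.

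By the lowest score percentile within an adult list, the 6 adult regions ranged from 4.95 to 50.1. Other adult lists could rank a region higher, as at the Dnmt3a region at 3810878 to 3811638, with percentiles of 50.1 to 76.2. With only E14.5 for the embryonic side, a choice made after the data were seen, 7 regions were called in adult libraries only, the 6 above and the Dnmt1 region with an E12.5 peak, and 13 at E14.5 only, 4 of them at Tet3 and 3 at Dnmt3a, beside 2271 and 21276 over all regions. With lists of equal length no member region was called on the adult or embryonic side only, beside 1441 adult and 504 embryonic regions of the genome, and with the highest-scoring 50% of each list 2 adult regions and no embryonic one were called, beside 1286 and 313.

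As sums, all 6 loci overlapped between adult and embryonic libraries. Dnmt3a had 36.4 ± 8.70 RPM in adult and 18.2 ± 10.4 in embryonic libraries (SD, n = 4 each), a log2 difference of 1.16 with an exact two-sided permutation p = 0.0571, where the smallest possible is 0.0286. Over the windows and loci together its Benjamini-Hochberg adjusted p was 0.548 by the same exact permutation test, and 26.1% of windows had a difference as high. The differences were 1.28 at Tet2, 1.01 at Dnmt1, 0.87 at Tet1, 0.85 at Tet3 and 0.27 at Dnmt3b, beside a median of 0.86 over the windows, of which 0.817% were higher and 0.0211% lower in adult libraries without overlap. Scaled by the tags in peaks, Tet2 was higher in adult libraries without overlap (0.47, exact permutation p = 0.0286, adjusted p = 0.550), as were 3.03% of windows, while 2.16% were lower. The difference at Dnmt3b turned to -0.55 when scaled by the tags in peaks, and those at Dnmt3b, Tet1 and Tet3 to -0.59, -0.09 and -0.41 against E14.5 alone.

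Ratios of a pair of loci within a library, which cancel the share of tags in peaks, separated adult from embryonic libraries in 3 of the 15 pairs, all with Dnmt3b. This measure was added after the data were seen, and which pairs separated depended on the lists used. The log2 ratio of Dnmt3a to Dnmt3b was 1.37 ± 0.32 in adult and 0.48 ± 0.17 in embryonic libraries (SD, n = 4 each), with 0.93 to 1.71 against 0.23 to 0.60. The ratio of Dnmt1 to Dnmt3b was 1.53 ± 0.23 in adult and 0.79 ± 0.27 in embryonic libraries, and that of Tet2 to Dnmt3b was 0.81 ± 0.37 in adult and -0.21 ± 0.42 in embryonic libraries. Each of the 3 had an exact two-sided permutation p = 0.0286, the smallest 4 against 4 libraries can give, not adjusted over the 15 pairs. The test treated the 4 libraries of a side as exchangeable, though each side joined 2 groups of 2 replicates.

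Such separation was also found away from these loci. Of ratios between neighbouring windows along the autosomes, 5.06% separated adult from embryonic libraries in either direction. The ratio to Dnmt3b was higher in adult libraries without overlap for 16.5% of all windows, and the ratios to Tet2, Dnmt3a and Dnmt1 were lower for 16.9%, 14.4% and 6.86%. With lists of equal length all 3 pairs overlapped, at an exact permutation p = 0.0571 each, and Dnmt3b to Tet3 separated instead (-1.08, exact permutation p = 0.0286). With the highest-scoring 50% of each list Dnmt1 to Dnmt3b overlapped (0.49, exact permutation p = 0.2), and the pairs that separated were Dnmt3a to Dnmt3b (0.96), Dnmt3b to Tet1 (-1.11), Dnmt3b to Tet2 (-1.11) and Tet2 to Tet3 (0.50).

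**Figure D4:**
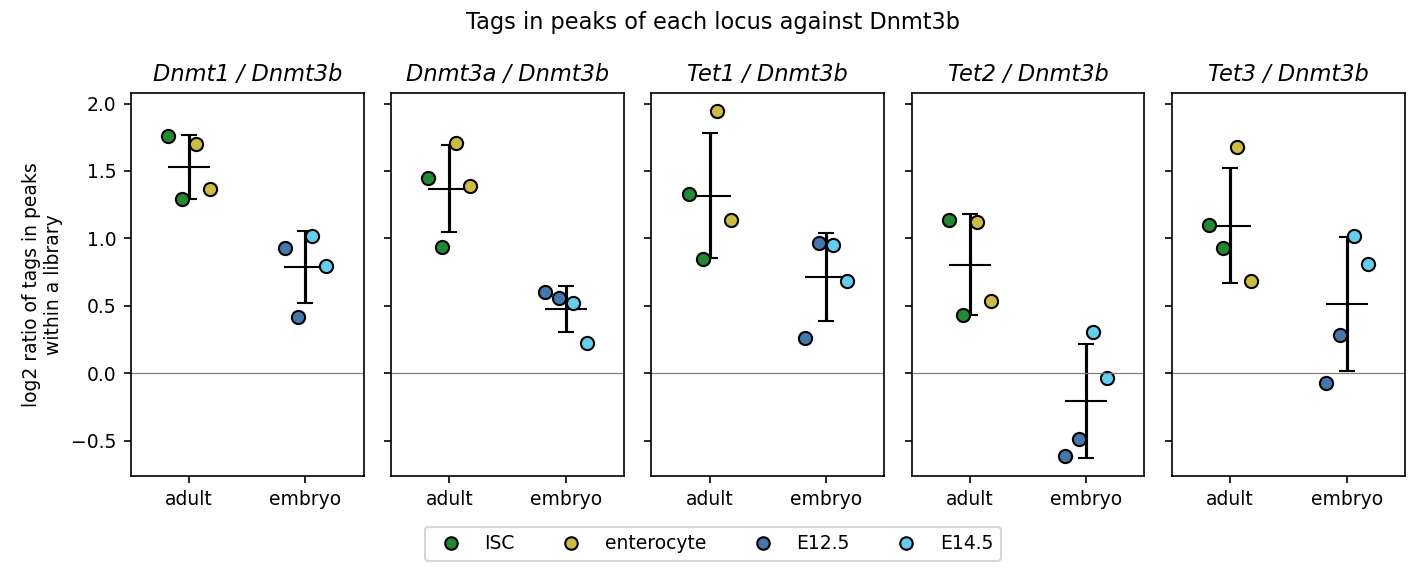
Log2 ratio of the tags in peaks of each locus to those of Dnmt3b within a library (y axis) for the 4 adult and 4 embryonic libraries (x axis), with 1 point per library coloured by group and the mean and SD as a dash and bar. Adult and embryonic points do not overlap for Dnmt1, Dnmt3a and Tet2, and do for Tet1 and Tet3.

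Tags of single regions were tested with edgeR's quasi-likelihood test among regions called in every library compared, with Benjamini-Hochberg adjustment over all of them. No member region passed an adjusted p of 0.05 in any comparison, of 15 tested for E14.5 with E12.5, 58 for ISC with E14.5, 56 for enterocytes with ISC and 14 for adult with embryo. The background was 0% of all regions in each direction of the first 3 comparisons, and 0.199% higher and 0.0529% lower in the last. At an unadjusted p under 0.05, 2 member regions were higher and 0 lower at E14.5 than at E12.5, 1 higher and 1 lower in ISC than at E14.5, 3 higher and 0 lower in enterocytes than in ISC, and 1 higher and 1 lower in adult than in embryonic libraries. Over all regions tested the shares at that p, higher and lower, were 7.34% and 7.91%, 3.44% and 2.32%, 3.68% and 1.36%, and 7.46% and 4.43% in the same order of comparisons. DESeq2 called no member region either. The median log2 difference of the 15 regions at E14.5 over E12.5 was 0.25, against -0.01 over the 32490 tested, and 0.15 against 0.12 with tags taken per kb of the peaks.

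The smallest p-values among the members belonged to regions that were singled out after their values were seen. At Tet2, the top region was higher in adult than in embryonic libraries by 0.74 ± 0.22 on the log2 scale (SE; edgeR adjusted p = 0.197), and higher at E14.5 than at E12.5 by 1.11 ± 0.37 (adjusted p = 0.186). The adult difference turned to -0.26 when tags were taken per kb of the library's peaks. The median over all 24563 regions tested was then -0.41. A Dnmt1 region at 20775543 to 20777471, next to the top one, held 3.25 and 3.5 RPM in enterocytes and 1.39 and 2.04 in ISC. The difference was 0.92 ± 0.24 on the log2 scale (edgeR adjusted p = 0.765). Per kb of the peaks it turned to -0.35, beside a median of -0.41 over all 94116 regions tested.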

How the data were processed

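The members and the tests were chosen with earlier results of these data known. The submitters' processing notes name Bowtie 1.1.2, SAMtools 1.2 and bcl2fastq 1.8.4, and build mm9. Per the file headers, the authors called peaks library by library with MACS 1.4.2, with no control library, at a p cutoff of 1e-05. The tags per peak are whole-number counts, as the authors deposited them. The deposited score per peak is the caller's p-value on a negative log10 scale, times 10, and ranked peaks within a list. The deposited fold enrichment per peak is a ratio to the local background and was read but gives no result here. Start, end and summit are in mm9.

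Peaks of all lists were merged where they shared 1 bp (Python 3.11.15, pandas 2.3.3). A region counted for a group when every library of it and none of the compared group had a peak. Tags were scaled to the header total as RPM. Locus sums were compared on log2(RPM + 0.1), adult with embryo, with an exact permutation test (SciPy 1.17.1), beside autosomal windows of 100 kb. edgeR 4.0.16 (glmQLFit, TMM factors on the header totals, R 4.3.3) tested tags over all regions called in every library compared. DESeq2 1.42.0 was an alternative. The scripts were tested on simulated data. Depth was 31438314 to 55442400 tags per library. Duplicates are biological per the labels, and p-values rest on 2 libraries per group. The permutation tests of adult with embryo treated the libraries of a side as exchangeable, though each side joined 2 groups. Regions named were the top one per locus by mean RPM over the 8 libraries (no peak counted as 0), those called on the adult or embryonic side only, and up to 5 per pairwise comparison and direction by score percentile. Alternatives were equal-length lists, the highest-scoring 50%, merging within 500 bp, 50% cover, other scalings, a filter on mean tags under 20, a replicate block and leaving out each replicate. Added after the data were seen were only E14.5 for the embryonic side and the ratios of loci. Other genes of the pathway were not analysed here, since no interval on the build of the files was given for them.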

Additional observations from a re-analysis of the deposited data

How the results depend on the processing

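Counts of member regions called in 1 group only depended on the length of the lists. With equal-length lists they were 10 (of all regions 12184) at E14.5 and 3 (8098) at E12.5 only, 5 (7313) in ISC and 1 (6729) at E14.5 only, 1 (6518) in enterocytes and 4 (5219) in ISC only, and 0 (1441) adult and 0 (504) embryonic. With the highest-scoring 50% of each list they were 31 (55192) at E14.5 only against E12.5, 5 (5922) in ISC and 8 (18065) at E14.5 only, 0 (4195) in enterocytes only, 2 (1286) adult and 0 (313) embryonic. With 50% cover 30 (48305) were called at E14.5 only against E12.5, 6 (15154) in enterocytes only and 0 (278) in embryos only. With only E14.5 for the embryonic side 13 (21276) were embryonic only. Leaving out 1 library gave 61 to 78 at E14.5 only and 1 to 7 at E12.5 only (over all regions 139854 to 195094 and 2726 to 12419). For ISC and E14.5 it gave 16 to 24 in ISC only and 21 to 34 at E14.5 only (20606 to 38222 and 45333 to 85982). For enterocytes and ISC it gave 4 to 17 in enterocytes only and 11 to 27 in ISC only (11797 to 32822 and 27562 to 72270). It gave 6 to 9 adult and 1 to 2 embryonic regions (2051 to 5329 and 744 to 2401). A group left with 1 library meets the presence rule more easily by construction. Without TMM factors 4 of 15 regions were higher at E14.5 than at E12.5 (4172 of 32490 over all, median 0.71). At that setting 2 of 14 were higher in adult libraries (3677 of 24563, median 0.49). With 1 library left out at a time, the log2 difference of the top Tet2 region at E14.5 over E12.5 was 0.82 to 1.78. The adult minus embryonic log2 sum of Dnmt3b was -0.55 scaled by the tags in peaks, -0.12 with equal lists, -0.063 without E12.5 replicate 2 (leave-outs -0.063 to 0.56) and -0.59 against E14.5 alone, which also turned Tet1 to -0.092 and Tet3 to -0.41. Differences without overlap arose at Tet2 scaled by the tags in peaks (0.47), at Dnmt3a (1.12) and Tet3 (0.96) with equal lists, each at an exact permutation p = 0.0286 that no adjustment over windows kept under 0.05, and at Dnmt3a and Tet2 without E14.5 replicate 1 (1.46 and 1.74, exact permutation p = 0.0286) and Dnmt3a without ISC replicate 1 (1.29, exact permutation p = 0.114); leave-outs spanned 0.86 to 1.46 and 0.86 to 1.74. Windows higher without overlap then were 3.03%, 9.78%, 12.01% and 4.07%. The other ratio alternatives gave, with equal lists, 0.91 for Dnmt1 to Dnmt3b, 1.24 for Dnmt3a to Dnmt3b and -1.16 for Dnmt3b to Tet2, all 3 overlapping. With the highest-scoring 50% Dnmt1 to Dnmt3b was 0.49, overlapping at an exact permutation p = 0.2. Leaving out 1 library gave 0.62 to 0.82, 0.78 to 1.04 and -1.18 to -0.88. Pairs that did not overlap with all libraries cannot overlap in a leave-out, so the leave-outs are no check of the separation. Without any 1 embryonic library the exact permutation p of Dnmt3a to Dnmt3b was 0.0571. Without any 1 adult library that of Dnmt3b to Tet2 was 0.0571. In the other leave-outs of these pairs, and in all of Dnmt1 to Dnmt3b, the exact permutation p was 0.0286. Per kb of peaks, log2 differences turned to -0.23 for the Tet1 region at 62320602 to 62321562 and -0.35 for the Dnmt1 region at 20775543 (enterocytes over ISC), and to -0.26 for the top Tet2 region (adult over embryonic). Medians over all regions tested were -0.41 at this setting in both comparisons. The cause of these changes was not tested. Deviations of same-numbered libraries correlated at -0.02 to 0.07, so no pairing by replicate number was seen. Whether same-numbered libraries shared animals or preparations was not tested and cannot be told from these correlations. With the replicate number as a block 0 member regions were called in each comparison. The caller's cutoff limits presence, since tags below it are not listed. The E12.5 lists were the shortest although these libraries held the most tags, with 9.84% and 7.46% of them in peaks.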
